A study of Mus musculus with 6 samples.

Results

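A set of 7 genes tied to stem and progenitor cells were followed across 6 RNA libraries of Py2T, an epithelial cell line established from a mouse mammary tumour. They are the transcription factor genes Sox2, Sox4, Sox9, Klf4 and Eomes, the Polycomb gene Bmi1, and the long non-coding RNA gene Lncenc1. The 7 were taken by name from a table of 24454 gene rows, and all 7 have a row. They were picked from the measured differences of these same libraries and their known roles, so their levels and differences in the comparisons below are a description and are given without a p-value. Total RNA of 3 groups of 2 libraries was sequenced. The control group is labelled PBS and is listed with 0 µM H2O2 over the same 4 months as the treated groups. The labels also call these cells untreated. C40 cells had received 40 µM H2O2 daily for 4 months and I60 cells 60 µM over the same time. All groups come from the same cell line, and the libraries of a group are called biological duplicates. The sources used here do not say whether they were kept apart during the treatment, so the replicate spread may be technical in part. Each treated group is 1 line, and effects of H2O2 and drift of that line during culture cannot be told apart.

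Sox proteins bind DNA through an HMG box. Sox2 is a core factor of pluripotent and neural stem cells, Sox4 belongs to the SoxC subgroup and is known for its part in epithelial-mesenchymal transition, and Sox9 marks progenitors of many epithelia, the mammary gland among them, and drives cartilage formation. Klf4 is a zinc finger factor of both pluripotent cells and differentiated epithelia. Eomes, a T-box factor, acts in early mesoderm and endoderm, in trophoblast and in lymphocytes. Bmi1 is a subunit of Polycomb repressive complex 1 (PRC1), which silences the Cdkn2a locus and is needed for stem cell self-renewal. Lncenc1 is a long non-coding RNA named from embryonic stem cells.

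The sequences upstream of the 3 genes with the widest range of levels are shown first, to set a GC-rich start (Sox2) beside the AT-rich starts of Eomes and Lncenc1. Each runs 5′ to 3′ on the plus strand of GRCm38.p6 (mm10 is another name for this build) and covers 250 bases. The Sox2 and Lncenc1 windows end at the base before the gene's RefSeq start, and the Eomes window, which RefSeq's promoter table sets from another start, runs 3 bases into the gene. Capitals mark any match, on either strand, to 7 motifs. For the core promoter these were the TATA box core TATAAA, the CCAAT box CCAAT and the GC box GGGCGG, which Sp and Klf factors bind. The E-box of Zeb and Snail factors was searched as CACCTG. Sox-type motifs were searched as ACAAAG and as ACAATG. The motif of T-box factors was searched as AGGTGTGA. The windows are chr3:34649745-34649994 for Sox2, chr9:118477939-118478188 for Eomes and chr13:97434720-97434969 for Lncenc1.
Sox2: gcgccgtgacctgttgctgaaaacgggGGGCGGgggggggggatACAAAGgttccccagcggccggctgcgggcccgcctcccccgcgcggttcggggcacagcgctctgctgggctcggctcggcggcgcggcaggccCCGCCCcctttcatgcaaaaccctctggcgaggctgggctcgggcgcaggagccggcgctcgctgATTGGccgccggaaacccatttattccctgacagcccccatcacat
Eomes: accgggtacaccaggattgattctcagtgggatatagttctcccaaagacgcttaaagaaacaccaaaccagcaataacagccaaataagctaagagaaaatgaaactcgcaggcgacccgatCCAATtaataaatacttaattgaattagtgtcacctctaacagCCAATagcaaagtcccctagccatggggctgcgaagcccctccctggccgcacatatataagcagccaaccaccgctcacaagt
Lncenc1: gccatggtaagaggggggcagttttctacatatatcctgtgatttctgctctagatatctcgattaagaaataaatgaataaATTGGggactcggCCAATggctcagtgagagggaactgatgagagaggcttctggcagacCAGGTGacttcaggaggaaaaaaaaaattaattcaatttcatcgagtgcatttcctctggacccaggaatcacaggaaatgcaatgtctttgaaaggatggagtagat

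RefSeq's promoter table held 6 of the 7 genes, and Sox9 was not among them. The share of G and C was 72.0% for Sox2, 74.0% for Klf4 and 70.4% for Bmi1, against 50.8% for Sox4, 46.4% for Eomes and 42.4% for Lncenc1, and a median of 52.4% over 32851 promoter windows of the same length. CpG pairs numbered 27 for Sox2, 8 for Eomes and 3 for Lncenc1 (median 6 over all windows). GGGCGG stood in 3 of the 6 windows (Sox2, Klf4 and Bmi1) and in 32.7% of all windows. CCAAT stood in 4 of the 6 (Sox2, Sox4, Eomes and Lncenc1) and in 33.8% of all. CACCTG was found for Lncenc1 alone (17.2% of all windows) and ACAAAG for Sox2 alone (16.5%). TATAAA (12.4%), ACAATG (10.7%) and AGGTGTGA (1.12%) were not among the letters of any of the 6 windows. Overlapping matches to a motif, as in Klf4 and Bmi1, were each marked, and a match is no evidence of binding.

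Whole reads could be recovered from the deposited CPM (read counts scaled to the total of a library), and the library totals ran from 48113692 to 60260520 reads, so that 1 read equals 0.0166 to 0.0208 CPM. The C40 libraries differed from each other by over 2-fold at 1022 genes, against 223 in PBS and 217 in I60. The keratins Krt8 and Krt18, which mark simple epithelium, stood at 1059 CPM or more in all 6 libraries. The summed level of 8 epithelial markers was 6998 and 7647 CPM in PBS, 3845 and 3700.0 in C40, and 3156 and 3093 in I60. The I60 sum is almost wholly Krt8 and Krt18. Cdh1 went from 529 and 537 CPM in PBS to 59.7 and 87.8 in C40 and 0.187 and 0.129 in I60. Epcam, Krt7, Cldn3 and Cldn4 were also lower in both lines. Each had 180 CPM or more in PBS and 3.28 or less in I60. Krt19 was at 0.332 CPM or below in all 6. The summed level of 8 fibroblast markers was 6.22 to 7.30 CPM in PBS, 428 and 135 in C40, and 184 and 242 in I60, with Lum, Thy1 and Fap at 0 in all 6. Of 8 immune markers, Adgre1, Cd3e and Tyrobp were at 0, the pan-leukocyte gene Ptprc was at 0.350 CPM or below, and 1 (Cd68, a lysosomal protein) passed 1 CPM, at 16.2 and 27.98 CPM in I60 and 3.55 to 4.995 in the other 4. None of 6 endothelial and 4 adipocyte markers reached 1 CPM (0 genes). The part of these shifts in the results below was not tested. In RNA of bulk cells, fewer cells that hold a transcript and less of it per cell cannot be told apart.

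The 7 genes did not move as 1 group. In I60, Sox2 and Lncenc1 were far above PBS, while Eomes was lost and Sox9 and Klf4 were lower. In C40, the main difference was a near-complete loss of Eomes. A call means an adjusted p below 0.05 in limma fitted on log2(CPM + 0.5) with Benjamini-Hochberg adjustment over the 11524 genes that had at least 1 CPM in at least 2 libraries. All 7 passed that filter, Sox2 only through I60 and Eomes only through PBS and C40. In C40 against PBS, 2 of the 7 were called, both lower, where 20.2% of all genes were called (9.02% lower). In I60 against PBS, 5 were called (2 higher and 3 lower), where 27.1% of all genes were (13.9% higher and 13.1% lower). In I60 against C40, 4 were called (2 higher and 2 lower), where 9.23% of all genes were (3.51% higher and 5.73% lower). Since these same differences picked the genes, a call on any of the 7, here and below, describes these libraries and is no test, and nothing is read from the counts. The libraries of the groups compared did not overlap for 4, 5 and 6 of the 7 in the same order of comparisons, beside 62.7%, 70.6% and 48.8% of all genes tested. The median log2 fold change of the 7 was -0.10, -0.51 and -0.80, against -0.024, -0.0022 and 0.015 over all genes tested.

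**Figure D1:**
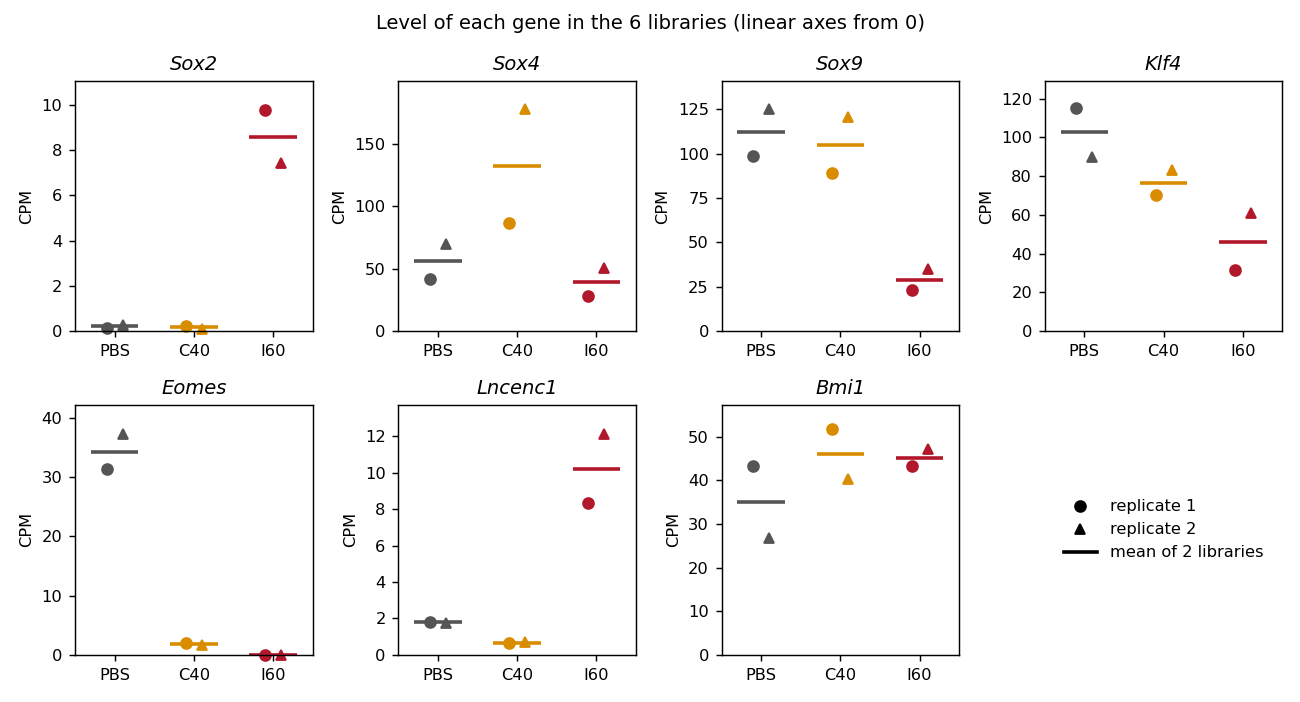
CPM of the 7 genes in each library, on linear axes from 0, with circles for replicate 1, triangles for replicate 2 and a line at the mean of 2 libraries. Sox2 and Lncenc1 are high in I60 alone, Eomes is high in PBS alone, and Sox4 is highest in C40 with replicate 2 above replicate 1 in each group.

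Sox2 (chromosome 3, 34649995 to 34652461, plus strand) has 1 exon and lies inside the span of the non-coding gene Sox2ot, which is on the same strand. It stood at 0.158 and 0.266 CPM in PBS, 0.229 and 0.110 in C40, and 9.74 and 7.42 in I60. These are 9 and 16 reads in PBS and 11 and 6 in C40, against 520 and 403 in I60. PBS and C40 overlapped, and both I60 libraries lay far above all the others. The I60 mean of 8.58 ± 1.64 CPM (SD, n = 2) compares with 0.212 ± 0.0764 in PBS, a log2 fold change of 3.67 (SE 0.25). That difference, 12.7-fold on the log2(CPM + 0.5) scale, understates the change of a gene this low in PBS: the pooled reads, scaled to library totals, differed 40.3-fold. Against C40 the log2 fold change was 3.76 (SE 0.25), while C40 against PBS was -0.09 (SE 0.25). Sox2ot was at 0 in the PBS and C40 libraries and at 0.0562 and 0.111 CPM in I60. Without a stated strand setting, and with both genes on 1 strand, reads of the 2 in the shared stretch cannot be told apart. No other gene next to Sox2 had a read: Mir1897 (11.5 kb before) and Gm3143 (47.2 kb after) were at 0 in all 6 libraries.

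Sox4 (chromosome 13, 28948919 to 28953699, minus strand), like Sox2 a gene of 1 exon, was the member with the widest replicate spread. Its level was 42.1 and 69.5 CPM in PBS, 86.3 and 178 in C40, and 27.998 and 50.8 in I60. C40 lay above both other groups with no overlap, and PBS and I60 overlapped. In each group the library numbered 2 was the higher, 1.65 times replicate 1 in PBS, 2.06 times in C40 and 1.81 times in I60. The log2 fold change was 1.19 (SE 0.44) for C40 against PBS, -0.51 (SE 0.44) for I60 against PBS and -1.70 (SE 0.44) for I60 against C40, and limma without a replicate block called none of the 3 (0 calls). Without C40 replicate 1 the differences of C40 were 1.71 against PBS and -2.22 for I60 against C40, and both were called. DESeq2 on the recovered reads also called both (1.25 and -1.77), and edgeR called I60 against C40 (-1.76).

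Sox9 (chromosome 11, 112782210 to 112787757, plus strand) was lower in I60 than in either other group. It had 99.0 and 125 CPM in PBS, 89.4 and 121 in C40, and 23.1 and 34.9 in I60. The PBS and C40 libraries interleaved, and both I60 libraries lay below all 4 of them. The PBS mean was 112 ± 18.7 CPM and the C40 mean 105 ± 22.2, while the I60 mean was 29.0 ± 8.38 (SD, n = 2). I60 was 3.88-fold below PBS (log2 fold change -1.95, SE 0.27) and 3.61-fold below C40 (-1.85, SE 0.27), both called. The second call was lost without I60 replicate 1, where the log2 fold change was -1.56. C40 differed from PBS by -0.10 (SE 0.27).

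Klf4 (chromosome 4, 55527137 to 55532475, minus strand) was highest in PBS and lowest in I60, with no overlap between any of the groups. PBS had 115 and 89.7 CPM, C40 70.0 and 83.1, and I60 31.4 and 60.7. The PBS mean was 102 ± 18.1 CPM and the C40 mean 76.6 ± 9.23, while the I60 mean was 46.1 ± 20.7 (SD, n = 2). I60 against PBS was called lower (log2 fold change -1.21, SE 0.32). Leaving out PBS replicate 1 (-1.03), PBS replicate 2 (-1.39) or I60 replicate 1 (-0.74) ended that call, and so did testing with no filter on low values (-1.21). The differences of C40 from PBS (-0.41, SE 0.32) and of I60 from C40 (-0.80, SE 0.32) were not called.

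Eomes (chromosome 9, 118478186 to 118486132, plus strand) went from a clear signal in PBS to nothing detected in I60. PBS had 31.4 and 37.2 CPM, C40 had 2.02 and 1.69, and I60 had 0 reads in both libraries. The 3 groups did not overlap, and C40 held 97 and 92 reads against 1794 and 2244 in PBS. C40 was 14.8-fold below PBS on the log2(CPM + 0.5) scale (log2 fold change -3.88, SE 0.24), and 18.6-fold by the pooled reads. With a floor of 3 reads over both I60 libraries (0.0279 CPM), I60 was at least 1234.5-fold lower than PBS and at least 66.2-fold lower than C40. The floor covers counting error only. The neighbouring gene Golga4, 20.1 kb after Eomes, stood at 145 and 109 CPM in PBS, 60.4 and 79.4 in C40, and 70.0 and 100.4 in I60, with limma adjusted p = 0.0563 in C40 and 0.139 in I60.

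Lncenc1 (chromosome 13, 97434970 to 97497664, plus strand) differed from PBS in opposite directions in the 2 treated lines. Its level was 1.80 and 1.78 CPM in PBS, 0.644 and 0.699 in C40, and 8.32 and 12.1 in I60. The groups did not overlap, and the reads behind them were 103 and 107, 31 and 38, and 444 and 659. C40 was lower by a log2 fold change of -0.97 (SE 0.26) and I60 higher by 2.21 (SE 0.26). I60 lay 9.01-fold above C40 (log2 fold change 3.17, SE 0.26), or 15.2-fold by the pooled reads. All 3 were called, but the C40 call was lost with any 1 of the 6 libraries left out (log2 fold change -0.93 to -1.0). It was also lost with a pseudocount of 1 (-0.74), with no filter on low values and with a filter of 5 CPM. Enc1, the coding gene 182 kb before it, was at 93.1 to 126 CPM in all 6 libraries and was not called in C40 or I60 (limma adjusted p = 0.634 and 0.818).

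Bmi1 (chromosome 2, 18677018 to 18686629, plus strand) was the member that varied least between groups. PBS had 43.3 and 26.7 CPM, C40 51.8 and 40.2, and I60 43.3 and 47.2. Every pair of groups overlapped. The log2 fold change was 0.42 for C40 and 0.40 for I60 against PBS (SE 0.27 each), with 95% intervals of -0.22 to 1.06 and -0.24 to 1.05. Commd3, which ends 0.787 kb before Bmi1 on the same strand, stood at 48.4 to 64.1 CPM and was not called either (limma adjusted p = 0.966 and 0.502).

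**Figure D2:**
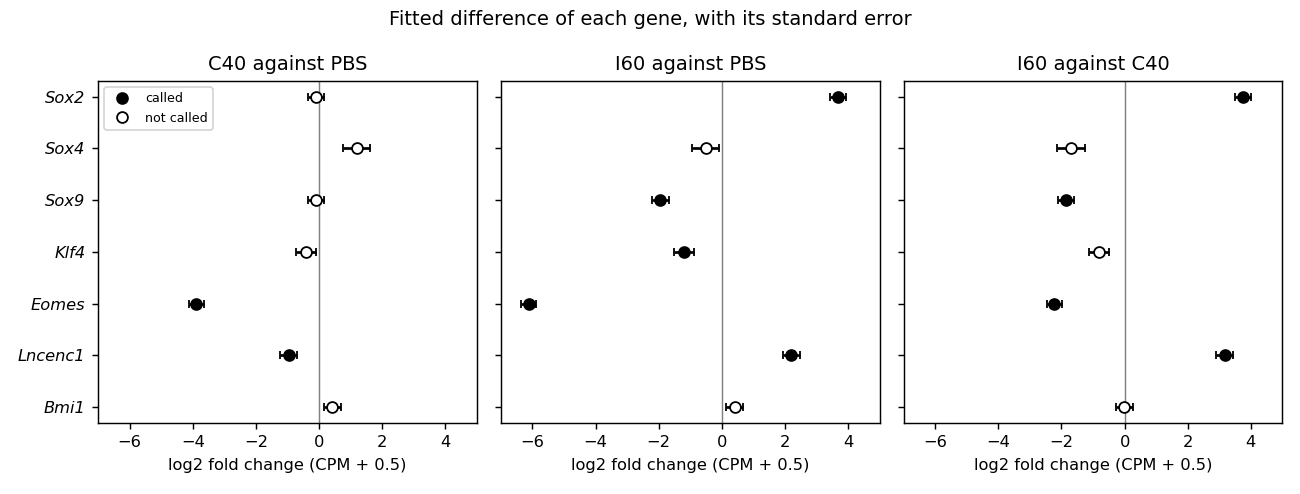
Log2 fold change of each gene on the log2(CPM + 0.5) scale in the 3 comparisons, with horizontal bars of 1 standard error, filled where called and open where not. Sox2 (3.67) and Lncenc1 (2.21) lie to the right in I60 against PBS, and Eomes is furthest left in both comparisons with PBS.

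Levels can be set beside each other only per length, here as CPM per kb of GENCODE exon sequence. In PBS, Klf4 was first at 33.6 CPM per kb and Sox9 second at 27.1, with overlapping libraries. Sox4 (11.6), Bmi1 (8.81) and Eomes (8.26) followed, each overlapping its neighbour. Lncenc1 (0.542) and Sox2 (0.103) were last and clearly apart. In C40, Sox4 (27.5), Sox9 (25.4) and Klf4 (25.1) overlapped at the top, Bmi1 was at 11.6, and Eomes had dropped to 0.446. In I60, Klf4 (15.1) and Bmi1 (11.4) overlapped, as did Sox4 (8.21) and Sox9 (7.01). Sox2 had moved up to 4.17 CPM per kb, overlapping Lncenc1 at 3.10, and Eomes was at 0. Without Eomes, the range from the highest to the lowest gene was narrower in I60 than in PBS or C40. With Eomes, which had no read in I60, no narrowing is shown. In none of the 3 groups was Sox2 at the level of Sox9.

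**Figure D3:**
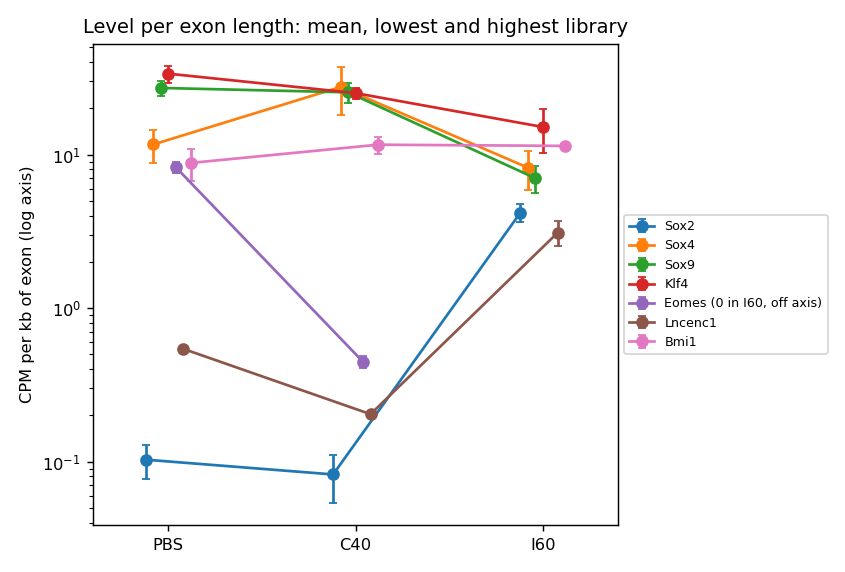
CPM per kb of exon on a log axis for each gene in the 3 groups, with the mean of 2 libraries as a point and the lowest and highest library as bars. Sox2 climbs from 0.103 in PBS to 4.17 in I60, and Eomes drops from 8.26 in PBS to 0.446 in C40 and is at 0, off the axis, in I60.

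The genes whose profile over the 6 libraries was closest to each member were found by the root mean square difference of centred log2(CPM + 0.5) values. Genes with predicted, RIKEN or clone-type symbols were left out. For Sox2 these were Rhd (0.23), Nr1h4 (0.29) and Nol4l (0.36). Rhd stood at 12.2 and 10.6 CPM in I60 and at 0.365 to 0.613 in the other 4 libraries. For Lncenc1 they were Gdpd3 (0.19), Dysf (0.27) and Crybg2 (0.27). Gdpd3 had 16.7 and 31.4 CPM in I60, 5.02 and 5.03 in PBS, and 1.91 and 3.04 in C40. For Eomes they were Hdgfl3 (0.32), Slc35e3 (0.34) and Il17re (0.38). Hdgfl3 stood at 59.1 and 41.8 CPM in PBS, at 1.97 and 2.32 in C40, and at 0.0375 and 0 in I60. Sox4 was closest to Rnf157 (0.21), Lrrc75a (0.22) and Ypel1 (0.24), and Rnf157 showed the same higher replicate 2 in each group (23.1 against 17.3 CPM in PBS, 46.5 against 27.3 in C40, 17.6 against 10.4 in I60). Sox9 was closest to Lman1l (0.14), Syde2 (0.20) and Enpp1 (0.21), Klf4 to Atp6ap2 (0.12), Arhgap12 (0.13) and Sclt1 (0.17), and Bmi1 to Pdss1 (0.095), Odf3l1 (0.10) and Ankrd42 (0.11). These are the nearest of those of the 11524 tested genes that remained after this exclusion, over 6 libraries in 3 groups. They describe shape only.

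The related gene lists below were also chosen with earlier results of these data known. Their adjusted p-values therefore describe these libraries and are no independent test. Most other Sox genes were hardly measured. Of the 16 other family members, 8 had no read in any library and 3 passed the filter. Folds of list genes, here and below, are on the log2(CPM + 0.5) scale unless reads or a floor are named. That scale understates differences of genes at low levels. Sox12, a SoxC gene like Sox4, rose in both lines. It went from 9.45 and 15.4 CPM in PBS to 31.2 and 45.2 in C40 and 33.2 and 32.3 in I60 (limma adjusted p = 0.0104 and 0.0133). Its call in C40 was lost without PBS replicate 1 (0.0844), and in I60 without PBS replicate 1 or either I60 replicate (0.0859 to 0.101). Sox13, a SoxD gene, stood at 6.16 and 5.74 CPM in PBS, 6.67 and 10.47 in C40, and 2.10 and 1.46 in I60. It was 2.86-fold lower in I60 than in PBS (limma adjusted p = 0.00973) and 3.94-fold lower than in C40 (0.00768), and leaving out I60 replicate 2 ended both calls (0.0878 for the second). The first also needed both PBS replicates (0.0596 to 0.0838 over the 3 losses). Sox21, a SoxB gene, stood at 9.43 and 9.91 CPM in PBS, 5.99 and 4.05 in C40 and 10.51 and 7.18 in I60, and was not called. So 1 of the 3 was called higher in both lines and 1 lower in I60, with medians of 0.46, -0.14 and -0.20 in the 3 comparisons. Over all genes 20.2%, 27.1% and 9.23% were called in the 3 comparisons, and nothing is read from counts over 3 genes.

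Among 16 other Klf genes, 12 were tested, and 3 rose and 0 fell in each line against PBS (9 not called), with medians of 0.46 and 0.41. Over all genes 20.2% were called in C40 (11.2% higher) and 27.1% in I60 (13.9% higher). The share called in either direction was thus near the background, and nothing is read from counts over 12 genes. Klf12, a repressor of the family, was 13.6-fold (C40) and 7.23-fold (I60) above PBS on the log2(CPM + 0.5) scale (limma adjusted p = 0.000587 and 0.00121). It went from 0.385 and 0.631 CPM in PBS to 10.8 and 15.8 in C40 and 5.00 and 9.01 in I60. The pooled reads were 60 in PBS, 1378 in C40 and 756 in I60, so that scale understates the change of a gene this low. Klf8 rose 1.98-fold and 2.55-fold and Klf13 1.51-fold and 1.69-fold. The Klf8 call in C40 ended on leaving out either PBS or either I60 library (limma adjusted p = 0.0512 to 0.126) and in I60 without I60 replicate 2 (0.0527). The Klf13 call in C40 was lost with any library left out (0.062 to 0.245), and in I60 without either PBS replicate or I60 replicate 2 (0.0878 to 0.117). Klf5, a factor of epithelial and pluripotent cells, stood at 46.5 and 41.3 CPM in PBS, 23.9 and 51.8 in C40 and 26.3 and 29.8 in I60, and was not called (limma adjusted p = 0.561 and 0.222). Between I60 and C40, limma, edgeR and DESeq2 each called 0 of the 12 (median -0.27), and 1 had an unadjusted limma p below 0.05.

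Of 30 T-box genes and partners of Eomes in mesendoderm and trophoblast, 12 had no read and 5 were tested. In C40, 1 rose and 1 fell, and in I60 2 rose and 1 fell, against PBS. Over all genes 20.2% were called in C40 and 27.1% in I60, and nothing is read from counts over 5 genes. Tbx3, a T-box transcriptional repressor that mammary gland formation requires, had 0 reads in PBS, 9.0 and 5.87 CPM in C40, and 1.01 and 0.461 in I60. C40 was thus at least 287-fold and I60 at least 28.7-fold higher than PBS, with a floor of 3 reads over both PBS libraries. Leaving out either PBS library or I60 replicate 1 ended the I60 call (limma adjusted p = 0.112 to 0.144). On the log2(CPM + 0.5) scale I60 was 6.46-fold below C40 (limma adjusted p = 0.00267), with 79 reads against 752. Gata4, an endoderm and heart factor, rose 4.81-fold in I60 on the log2(CPM + 0.5) scale (limma adjusted p = 0.000848). It went from 0.438 and 0.797 CPM in PBS to 4.46 and 5.18, or from 73 to 519 pooled reads. It was 3.51-fold above C40 (0.00598), a call lost without I60 replicate 2 (0.0665). Gata3, the factor that maintains luminal mammary cells, fell in both lines, from 48.3 and 55.0 CPM to 23.0 and 16.0 in C40 and 19.3 and 21.3 in I60 (limma adjusted p = 0.0072 and 0.00657). Its C40 call was lost without either PBS replicate (0.0556 and 0.0689) and its I60 call without PBS replicate 2 or I60 replicate 1 (0.057 and 0.066). The list medians were -0.14, 0.16 and 0.30.

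The wider pluripotency network was mostly silent. Of its 32 listed genes, 13 had no read in any library and 5 were tested, among them Tbx3, Klf2 and Klf5 of the lists above. In C40, 1 rose and 1 fell, in I60, 1 rose and 2 fell, and I60 against C40 gave 1 lower. The shares called over all genes were 20.2%, 27.1% and 9.23%, and nothing is read from counts over 5 genes. Lin28b, which blocks maturation of let-7 microRNAs, fell from 20.4 and 10.9 CPM in PBS to 2.79 and 2.41 in C40 (limma adjusted p = 0.00317). It was at 4.20 and 4.27 in I60 (0.0085), a call lost without PBS replicate 1 or either I60 replicate (0.0538 to 0.0651). Tfcp2l1, a factor of naive pluripotency, fell 3.22-fold in I60 on the log2(CPM + 0.5) scale (limma adjusted p = 0.00716), a call lost without either I60 replicate. It went from 4.57 and 2.47 CPM in PBS to 0.674 and 0.737 in I60. Pou5f1 and Nanog, the core factors that act beside Sox2, were below the filter, at 0.147 and 0.0831 CPM or less. The medians were -0.31, -0.64 and -0.33.

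PRC1 subunits were nearly all measured, 24 of 25 genes with the Cdkn2a and Cdkn2b locus included, and calls among them were no more frequent than the 20.2% (C40) and 27.1% (I60) over all genes. In C40, 0 rose and 3 fell (21 not called), and in I60 2 rose and 4 fell (18 not called), with medians of -0.12 and 0.031. Cdkn2a, a locus that Bmi1 is known to silence, fell in both lines. It had 111 and 165 CPM in PBS, 17.1 and 14.2 in C40, and 44.7 and 39.1 in I60 (limma adjusted p = 0.000307 and 0.0025). I60 was 2.64-fold above C40 (0.0136), lost without either I60 replicate (0.0906 and 0.124). Cdkn2b, its neighbour gene, was 4.12-fold lower in C40 (limma adjusted p = 0.014; 0.0948 without PBS replicate 2) and was not called in I60 (0.0858). Of Bmi1's paralogs, Pcgf3 fell from 106 and 110 CPM to 65.8 and 63.0 in C40 and 68.0 and 65.6 in I60 (0.0159 and 0.0163). Its calls were lost without either PBS replicate and, in I60, either I60 replicate (0.0766 to 0.106).

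In I60, 2 chromobox subunits differed in opposite directions: Cbx2 fell from 38.7 and 50.02 CPM to 15.9 and 12.5, and Cbx7 rose from 18.9 and 21.8 to 48.0 and 59.8 (limma adjusted p = 0.00643 and 0.00914). The first was lost without PBS replicate 2 or I60 replicate 2 (0.0633 and 0.065), the second without either PBS replicate or I60 replicate 2 (0.0509 to 0.0852). Phc2 fell 1.69-fold (limma adjusted p = 0.0392; 0.126 to 0.207 on leaving out PBS replicate 2 or either I60 replicate). Pcgf2, the closest paralog of Bmi1 and named here after its value was seen, rose 1.68-fold (0.0315; 0.073 to 0.208 on leaving out any of the PBS or I60 libraries).

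Known targets of Sox9 in cartilage gave little signal. Of 18 genes, 2 were tested, Col11a2 and Wwp2, and limma and edgeR called neither in any comparison (0 calls; the medians were 0.36, 0.55 and 0.19). In the 3 comparisons 1, 1 and 0 of them had an unadjusted limma p below 0.05, and DESeq2 called 1 gene in I60 against PBS. Col11a2 stood at 0.578 and 1.06 CPM in PBS, 1.41 and 2.67 in C40, and 1.72 and 3.11 in I60. Col2a1, the classic target, was at 0.263 CPM or below in all 6 libraries, and Acan was at 0.490 and 0.0996 in PBS and at 0 in C40 and I60.

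Of 20 neural progenitor genes, 5 were tested. In C40 1 rose and 1 fell, in I60 0 rose and 1 fell, and between I60 and C40 2 were lower. The shares called over all genes were 20.2%, 27.1% and 9.23%, and nothing is read from counts over 5 genes. Nes (nestin) encodes an intermediate filament of neural progenitors and is a known target of Sox2. It had 413 and 386 CPM in PBS, 17.4 and 16.7 in C40, and a total of 1 read in I60. C40 was 22.75-fold below PBS (limma adjusted p = 5.1e-05). The I60 reads were 42989-fold fewer per library total than in PBS, with a counting interval of 7715 to 1698000. I60 was also the group where Sox2 was highest, and a link between the 2 genes was not tested. Tubb3, a neuronal tubulin, had 11.3 and 1.53 CPM in PBS, 35.1 and 29.9 in C40, and 1.91 and 3.43 in I60. Its call in C40 against PBS (limma adjusted p = 0.0414) was lost with any library but PBS replicate 1 left out (0.0634 to 0.086). I60 was lower than C40 (0.0321), lost without C40 replicate 2 or either I60 replicate (0.051 to 0.235). The medians were -0.36, -0.14 and 0.012.

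**Figure D4:**
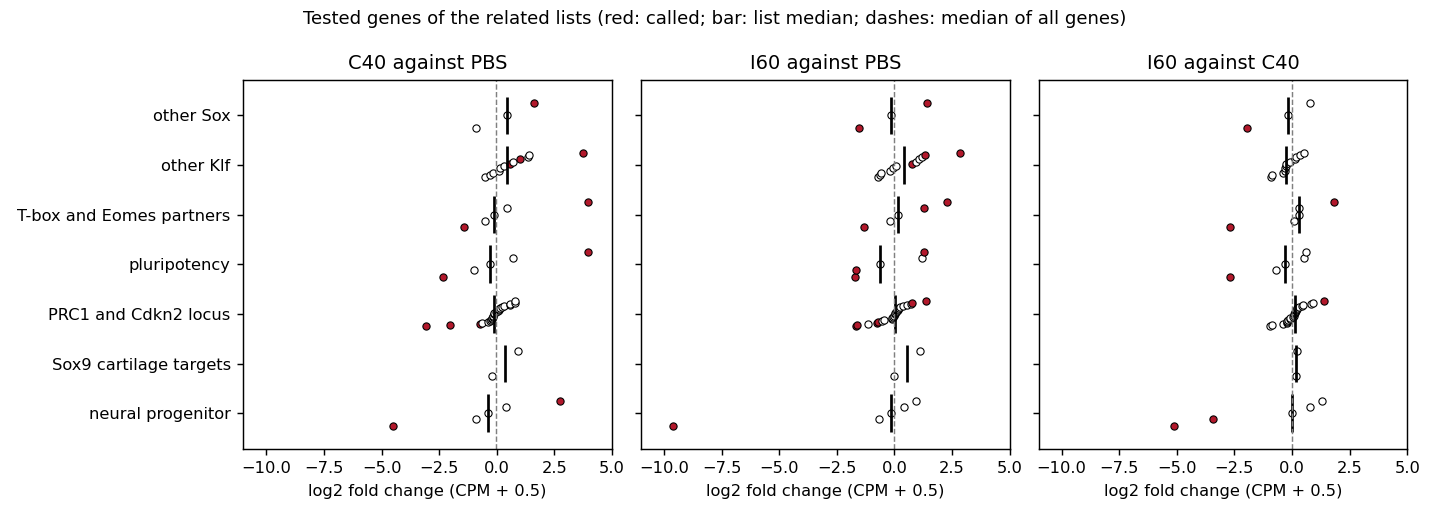
Log2 fold change of every tested gene of the 7 related lists in the 3 comparisons, filled red where called, with a bar at the list median and a dashed line at the median of all genes tested. In both comparisons with PBS the point furthest left is Nes, and Klf12 (3.76 in C40 and 2.85 in I60) is far to the right.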

How the data were processed

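RNA of 6 Py2T libraries (2 each of PBS, C40 and I60) was analysed from a table of CPM that the authors computed and deposited, with 1 row per Entrez gene. Per the submitters' processing notes, STAR and mm10 were used. The sources used here name no counting program, gene annotation or strand handling, so reads of overlapping genes may be shared. Every value divided by the smallest value of its library was whole within 0.01 (100% of values), which gave the recovered reads. Symbols came from RefSeq GRCm38.p6 (24374 IDs matched, 80 did not), and exon lengths from GENCODE M21.

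A linear model with an intensity trend (limma 3.58.1, R 4.3.3) was fitted on log2(CPM + 0.5) to all 6 libraries in 1 model of 3 groups (3 residual degrees of freedom), two-sided. Genes needed at least 1 CPM in at least 2 libraries. Alternatives were pseudocounts of 0.1 and 1, no filter and a 5 CPM filter, only the 2 groups compared, a replicate block, TMM scaling, edgeR 4.0.16 and DESeq2 1.42.0 on recovered reads, and each library left out. The fits were tested on simulated data. The 7 genes and the related lists were chosen with earlier results of these data known. Named list genes are up to 4 called per list and comparison by size of change, plus neighbours on the chromosome and the 3 closest profiles of each member. A few uncalled or untested list genes (Sox21, Klf5, Pou5f1, Nanog, Col11a2, Wwp2, Col2a1, Acan, Sox15, Col27a1, Slc1a3, Klf15, Cdkn2b in I60) and Pcgf2 were named after their values were seen. Values are means ± SD of CPM. A limma p-value sets a group difference against the spread between the 2 libraries of a group. That spread is pooled over the 3 groups and moderated towards the intensity trend.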

Additional observations from a re-analysis of the deposited data

Results flagged for a closer look

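Lncenc1 lay on opposite sides of PBS in the treated lines: both C40 libraries were below and both I60 libraries above the PBS libraries, and the log2 fold change of I60 against C40 was 3.17. The gene was picked from these same differences, so this is a description and no test, and both comparisons with PBS share the PBS libraries. The C40 difference from PBS (-0.97) missed the threshold with any 1 of the 6 libraries left out.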

How the results depend on the processing

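Of 315 fold changes of the 7 genes recomputed under the alternatives, 0 reversed, 269 moved by less than the replicate SD and 46 by more. The calls of Sox4, Klf4, Lncenc1 in C40 and Sox9 in I60 against C40 depended on the setting, as given with those genes. Of 405 counts of calls recomputed, 311 stayed within 1.5 times the main count, and the cause of the others was not tested beyond what fewer libraries or genes imply. All-gene calls in I60 against C40 (1064) were 699 with only the 2 groups compared and 1669 with DESeq2. In C40 against PBS, the 2 calls among the 7 genes became 1 with a pseudocount of 1, no filter or a 5 CPM filter. With no filter, calls were 2 (C40) and 2 (I60 against C40) for other Sox genes, 1 for Klf genes in C40, 3, 1 and 1 for cartilage genes in the 3 comparisons, and 1 (C40) and 2 (I60) for neural genes. With a 5 CPM filter they were 1 for Klf genes in C40 and 1 for T-box genes in I60 against C40. With only 2 groups they were 1 (C40) and 6 (I60) for Klf genes, 5 for pluripotency genes in I60, 1 for cartilage genes in I60, and 1 (C40) and 2 (I60) for neural genes. DESeq2 gave 2 for other Sox and 5 for Klf genes in C40, 1 for cartilage genes in I60 and 3 for PRC1 genes in I60 against C40, and edgeR gave 1 for neural genes in C40.

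Leaving out 1 library at a time, in the order C40 against PBS, I60 against PBS and I60 against C40, gave 974 to 3467, 1511 to 4190 and 420 to 1769 calls over all genes. For the 7 genes it gave 1 to 2, 4 to 5 and 3 to 5. It gave 0 to 2, 0 to 2 and 0 to 1 for other Sox, 1 to 5, 1 to 6 and 0 to 2 for Klf, 1 to 2, 1 to 3 and 1 to 2 for T-box, and 2 to 3, 0 to 5 and 1 to 2 for pluripotency genes. It gave 1 to 6, 1 to 7 and 0 to 3 for PRC1, 0 to 1, 0 to 1 and 0 to 0 for cartilage, and 1 to 3, 1 to 2 and 1 to 3 for neural genes. A group left with 1 library was assumed to vary like the others. The lowest all-gene counts came without PBS replicate 1 in both comparisons with PBS, and without I60 replicate 2 in I60 against C40. With 2 libraries a group, small differences are beyond reach, and genes under about 1 CPM rest on few reads.

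The labels do not pair libraries by replicate number. The deviations of same-numbered libraries correlated across genes by 0.15 (PBS and C40), 0.11 (PBS and I60) and 0.44 (C40 and I60). With the replicate number as a block, 2853, 3494 and 1253 genes were called, and 3, 5 and 5 of the 7, with Sox4 added in both comparisons of C40. The replicate block gave 5 (C40) and 6 (I60) calls for Klf genes and 1 (C40) and 1 (I60) for cartilage genes.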

Other observations

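Some list genes below the filter still differed in level between groups, given here as values without a test. Sox15, a Sox gene of muscle and germ cells, stood at 0.315 and 0.415 CPM in PBS, 0.0416 and 0.0184 in C40, and 0.899 and 0.829 in I60, the same order of groups as Lncenc1. Col27a1, a fibrillar collagen and target of Sox9, was at 0.560 and 0.614 CPM in PBS, 0.125 and 0.202 in C40, and 0.899 and 1.29 in I60. That is the same order again, but both genes were named after their values were seen. Other list genes below the filter had other orders. Slc1a3, a glutamate transporter of radial glia, reached 1.16 CPM in C40 replicate 1 and 0.0920 in C40 replicate 2, and Klf15 0.717 CPM in C40 replicate 2 and 0 in replicate 1, so that 1 library carried each.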
